A study of Arabidopsis thaliana with 18 samples.

Results

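The *stn7* knockout of *Arabidopsis thaliana* was followed over the later interval of a light shift, by setting leaves harvested after 60 min in light that favours photosystem II (PSII light) against leaves harvested after 30 min. The members are the 6 arrays that the sample titles give as mutant at 60 min (3 arrays) and mutant at 30 min (3 arrays), of 18 arrays in the series. The mutant is the insertion line SALK_073254 in the Col-0 background, so it stands for a single allele, and all other groups share that background. Each array held labelled RNA from rosette leaves of a pool of at least 250 plants aged 23 days. All plants had grown for 20 days in continuous white light of 35 µE at 22 °C before 3 days in PSI light, which mainly excites photosystem I. The groups used beside it are wild-type Col-0 (WT) at 60 and 30 min, and both genotypes at 0 min, which were still in PSI light (3 arrays each). No group stayed in PSI light for a further 30 or 60 min, so time of harvest and time in PSII light cannot be told apart.

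STN7 is a protein kinase of the thylakoid membrane. It is activated when the plastoquinone pool between the photosystems is reduced, and it phosphorylates antenna proteins so that excitation energy is shared out again between the photosystems (a state transition). The series uses the knockout as a line in which this redox signal is not perceived. A move between light qualities also reaches the phytochromes, the red and far-red photoreceptors, which control genes of shade avoidance, auxin response and cell elongation.

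Values are log2 signals per probe set, and a change is the mean of the 60 min arrays minus the mean of the 30 min arrays, ± the moderated standard error (SE) from limma. A probe set was called at an adjusted p under 0.05, from limma with Benjamini-Hochberg adjustment over 22746 probe sets. Array medians ran from 6.1 to 6.31. Correlations between replicate arrays were 0.9919 to 0.9955 in *stn7* at 60 min and 0.9936 to 0.9967 in *stn7* at 30 min. No probe set was named for STN7 in the annotation, so the loss of its transcript was not checked here. Of 10 leaf mesophyll markers only RCA, the rubisco activase, had a named probe set, with a signal of 12.96 ± 0.03 (SD, n = 3) at 60 min and 13.09 ± 0.06 at 30 min. In bulk leaf RNA, fewer cells of a type and less RNA per cell cannot be told apart.

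Between 30 and 60 min, 3702 probe sets changed in *stn7*, which is 16.3% of those tested. Of these, 1675 (7.36%) were higher at 60 min and 2027 (8.91%) were lower. When each array was first centred on the same median, the split turned to 2263 higher and 1623 lower. In 3547 called probe sets (15.6% of all tested) the arrays of the 2 times did not overlap. Called or not, 7411 probe sets (32.6%) had arrays that did not overlap between the times. Large changes were mostly falls: 354 of the called probe sets fell at least 2-fold and 52 rose at least 2-fold. Described next are 12 rises and 12 falls, taken by size of change from the probe sets that carry 1 gene and have separate arrays.

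A pair of array measures moved with harvest time in *stn7*. The first is the within-group axis, the main direction along which replicate arrays of a group differ, which holds 28% of the within-group variance. Its position was 28.76, 17.84 and -1.16 in the *stn7* arrays at 60 min, against -1.14, -21.14 and -23.79 at 30 min, so the times met at 1 array each. Across probe sets, the loading on this axis and the change in *stn7* had a Pearson correlation of 0.61 (a description over 22746 probe sets that share the same arrays). The positions are built from the same loadings and signals, so this correlation restates their shift and is not a second observation. The second is how far the control probe sets at transcript 3' ends exceed those at 5' ends (the 3' to 5' difference), a measure of RNA integrity and labelling, which was 0.937, 1.124 and 1.255 at 60 min and 0.952, 0.869 and 0.865 at 30 min, where 1 array at 60 min lies below 1 at 30 min. In WT it was 1.018, 1.073 and 1.058 at 60 min and 0.911, 0.913 and 0.799 at 30 min, without overlap. The mean axis position in WT was -14.87 ± 4.62 at 60 min and -14.83 ± 7.0 at 30 min (SD, n = 3 each). With the axis as a covariate 1110 probe sets were called, 432 higher and 678 lower. The axis is computed from the spread among these same replicates, so fitting it takes up that spread by construction. For AT2G01100, a large fall, the SE was 0.35 without the axis and 0.23 with it. The median SE over all probe sets was 0.122 and 0.142. Adjusted p from the fit with the axis may thus be too small for genes that follow it. The positions also include the mean shift from 30 to 60 min in *stn7*. The fit therefore removes the part of each change that follows the axis, whatever its source. A smaller change or a lost call with the axis cannot tell the sources apart. With the 3' to 5' difference as a covariate 781 were called, 345 higher and 436 lower. The median SE over all probe sets was then 0.165. A call lost in that fit can thus come from a larger SE, with or without a smaller change. Over the 13356 genes with a probe set, 1.62% were higher and 2.68% lower with the axis, and 1.37% and 1.7% with the 3' to 5' difference. The part of either measure in the changes was not tested further, and calls under them are given beside the largest changes and, for the axis, beside most lists.

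Without the third *stn7* array at 30 min the count of calls fell to 1551. It was 2302 without the second at 30 min, 2279 without the first at 60 min and 2295 without the second at 60 min.

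The rise with the highest fold was that of AT1G14200, a gene for which the annotation gives only a locus. Its signal was 7.27, 7.86 and 8.27 in *stn7* at 60 min, against 4.65, 5.48 and 5.46 at 30 min. This is a 6.08-fold rise (2.6 ± 0.21 on the log2 scale, limma adjusted p = 3.73e-06). At 0 min the mean had been 6.94 ± 0.11 (SD, n = 3), so the signal dipped at 30 min and then passed its starting level. WT followed the same course, with means of 7.47, 6.66 and 8.13 at 0, 30 and 60 min.

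AT3G14200, also named by locus only, had signals of 8.53, 9.2 and 9.14 in *stn7* at 60 min and of 6.73, 6.9 and 6.74 at 30 min. This is a 4.49-fold rise (2.17 ± 0.19, limma adjusted p = 5.38e-06), and unlike the previous gene it started from a level close to that at 0 min (6.83 ± 0.21). Both genes kept their call with either covariate and without any single *stn7* array, and both rose in WT as well, by 1.47 ± 0.21 and 1.31 ± 0.19.

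AT4G10270 was near the dim end of the arrays at 30 min, with 4.83, 4.4 and 4.22 in *stn7*, and reached 5.77, 6.26 and 6.17 at 60 min. Its rise of 1.59 ± 0.19 in *stn7* stood beside one of 1.83 ± 0.19 in WT, and the interval of the genotype difference was -0.8 to 0.32. The remaining locus-named rises were AT5G64850 (1.67), AT1G54050 (1.67), AT4G21870 (1.64), AT1G66080 (1.57), AT1G72920 (1.5), AT4G16563 (1.44) and AT2G31730 (1.44). AT1G72920 was the least firm of them: its arrays read 6.45, 7.55 and 7.77 at 60 min and 6.39, 5.53 and 5.34 at 30 min, and it lost its call with either covariate and without 4 of the 6 *stn7* arrays. AT4G16563 lost its call with the 3' to 5' difference as a covariate (limma adjusted p = 0.0645). Its change hardly moved (1.44 ± 0.3 without the covariate, 1.47 ± 0.43 with it), and its SE grew.

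XTH33, a xyloglucan endotransglucosylase that cuts and rejoins cell wall glucan chains, had 8.32, 7.25 and 7.63 in *stn7* at 60 min, against 6.8, 6.17 and 6.08 at 30 min. EXLA1, an expansin-like protein, had 10.43, 9.54 and 9.66 at 60 min, against 8.96, 8.53 and 8.3 at 30 min. In both, the first replicate was the highest at each time. XTH33 rose by 1.39 ± 0.25 and EXLA1 by 1.28 ± 0.21, and both were called with either covariate.

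**Figure D1:**
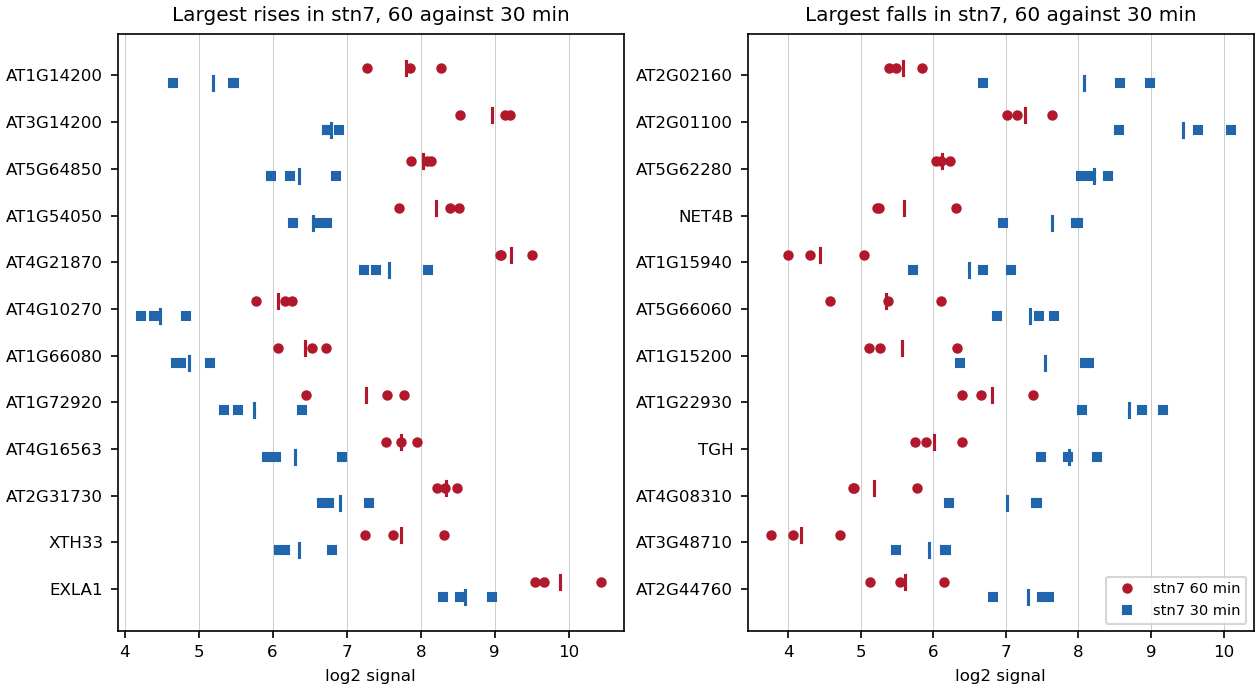
Log2 signal (x axis) of the 12 largest rises (left) and the 12 largest falls (right) in *stn7*, with circles for the 3 arrays at 60 min and squares for the 3 arrays at 30 min; short bars mark the means. The groups are separate for every gene because only such genes were taken. The gap is small for AT1G72920 (6.45 at 60 min against 6.39 at 30 min) and AT1G15200 (6.32 against 6.37).

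Among the falls, AT5G62280 had the tightest replicates. Its signal was 6.23, 6.1 and 6.04 in *stn7* at 60 min and 8.04, 8.18 and 8.41 at 30 min, a 4.25-fold fall (-2.09 ± 0.13, limma adjusted p = 2.03e-07). It was called with either covariate and in WT (-1.46 ± 0.13), and it was the only one of the 12 falls called in WT.

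The largest fall was that of AT2G02160, which read 5.49, 5.39 and 5.85 at 60 min and 6.68, 8.57 and 8.99 at 30 min (-2.5 ± 0.47, limma adjusted p = 0.00213). With the axis the change was -1.35 and still called, and the call was lost with the 3' to 5' difference (adjusted p = 0.0869). The first array at 30 min stood between the other arrays of its group and those at 60 min. That pattern recurred in AT2G01100, which read 7.16, 7.01 and 7.63 at 60 min against 8.56, 9.65 and 10.1 at 30 min. It also recurred in NET4B, which encodes a plant protein of the NETWORKED family that binds actin filaments: 5.22, 5.25 and 6.31 at 60 min, against 6.96, 7.99 and 7.97 at 30 min. The same first array at 30 min is the one nearest to the 60 min arrays on the within-group axis. That axis is itself computed from the signals of all probe sets, these included. NET4B fell by 2.05 on the log2 scale (SE 0.48) and was not called with the axis as a covariate (-0.71, adjusted p = 0.131).

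TGH (TOUGH), which acts in microRNA processing and pre-mRNA splicing, fell more evenly. It had 5.75, 5.9 and 6.39 in *stn7* at 60 min and 7.48, 7.86 and 8.25 at 30 min (-1.85 ± 0.19, limma adjusted p = 2.82e-05), and the call held with either covariate. The others, AT1G15940 (-2.04), AT5G66060 (-1.98), AT1G15200 (-1.97), AT1G22930 (-1.89), AT4G08310 (-1.83), AT3G48710 (-1.77) and AT2G44760 (-1.71), carry a locus name only. Of the 12 falls, 7 were called with the axis as a covariate and 6 with the 3' to 5' difference. For the 12 rises these counts were 11 and 10. AT1G15200 was the one fall that lost its call when single *stn7* arrays were left out, without 4 of the 6.

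**Figure D2:**
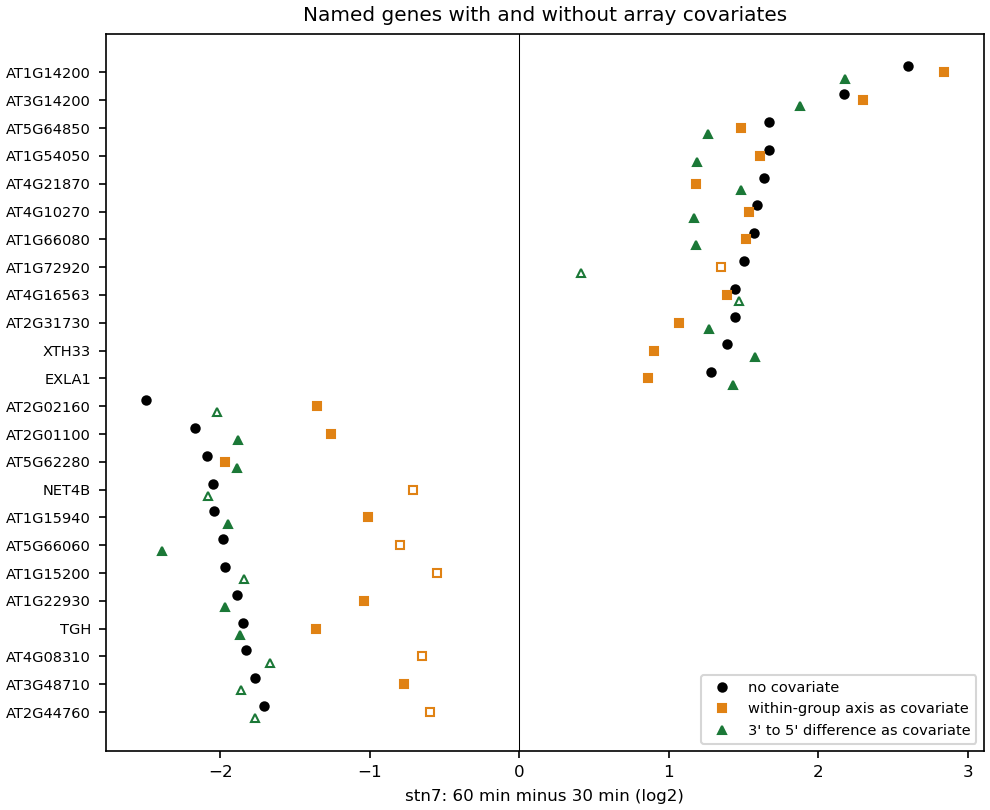
Change in *stn7* from 30 to 60 min (x axis, log2) for the 24 genes named as largest changes, without a covariate (circles), with the within-group axis (squares) and with the 3' to 5' difference (triangles); filled symbols are called. With the axis in the fit most falls shrink, as for NET4B (-2.05 to -0.71), while AT5G62280 (-2.09 to -1.97) and AT1G14200 (2.6 to 2.84) hardly move. Changes that follow the axis shrink by construction, since the positions include the *stn7* shift itself.

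The same interval in WT, which shares no array with *stn7*, had 258 called probe sets (1.13%), 123 higher (0.541%) and 135 lower (0.594%). Of these, 176 were also called in *stn7*, all of them in the same direction (80 higher, 96 lower). They are 68.2% of the WT calls and 4.8% of the *stn7* calls. Over the probe sets called in WT, the median change in the direction of WT was 0.63 in *stn7* and 0.66 in WT. Across all probe sets the changes of the genotypes had a Pearson correlation of 0.37 and a Spearman correlation of 0.34.

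The large rises and falls in *stn7* are set beside WT one direction at a time, without a test. Both sets were picked for their size in *stn7*, which by itself favours larger medians in *stn7* than in WT. Among the 52 rises of at least 2-fold, the median change was 1.2 in *stn7* and 0.83 in WT, and 42 had a WT change of at least 0.5 in the same direction. Among the 354 falls of at least 2-fold, the median change was -1.2 in *stn7* and -0.05 in WT, and 44 had a WT change of at least 0.5 downward. With the axis as a covariate 41 of those 52 rises and 149 of those 354 falls were still called. The median of those falls was then -0.54. Changes that follow the axis are made smaller by construction in this fit.

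**Figure D3:**
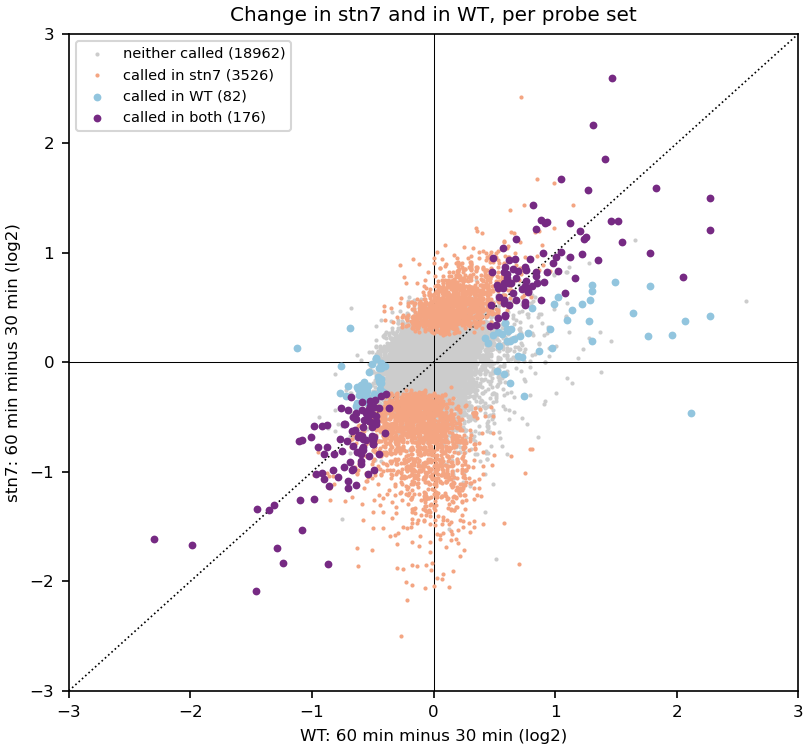
Change from 30 to 60 min in *stn7* (y axis, log2) against that in WT (x axis, log2) for each of 22746 probe sets, coloured by where they were called; the dotted line marks equal change. The 176 probe sets called in both genotypes lie at the upper right and lower left, and the 3526 called in *stn7* and not in WT include a group of falls near 0 in WT.

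A larger number of calls in *stn7* does not show that the genotypes differed. The difference itself (*stn7* change less WT change) passed the threshold in 5 probe sets (0.022%), 2 with a positive difference (0.00879%) and 3 with a negative one (0.0132%), each at a limma adjusted p of 0.0483, while 3245 had an unadjusted p under 0.05. This count depended on the fit: it was 410 when the 30 and 60 min arrays alone were fitted, 702 when arrays were weighted, and 0 once the 3' to 5' difference was a covariate. It was 0 without any one WT array and without 4 of the 6 *stn7* arrays, and 161 without the first *stn7* array at 30 min. TGH was the one among the 24 largest changes to pass (-1.67 ± 0.27). For the other 11 falls the adjusted p of the difference ran up to 0.21, and for the 12 rises it was 0.146 to 0.82. Intervals were wide, as for AT2G02160 (-3.63 to -0.83) and AT1G72920 (-2.05 to 0.5).

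Levels at 0 min are given beside the later ones, since the 30 min arrays enter both intervals. TGH had means of 7.26, 7.86 and 6.01 at 0, 30 and 60 min in *stn7*, and of 6.24, 7.19 and 7.01 in WT. AT2G02160 had means of 7.14, 8.08 and 5.58 in *stn7*, with arrays at 0 min as far apart as 8.36 and 6.41, and of 5.95, 8.15 and 7.87 in WT. NET4B had means of 7.21, 7.64 and 5.6 in *stn7* and of 5.84, 7.92 and 8.04 in WT. In these 3 genes the WT signal was lowest at 0 min and the *stn7* signal was lowest at 60 min. The WT arrays at 0 min and the *stn7* arrays at 60 min are also the groups with the highest mean position on the within-group axis (32.85 ± 19.95 and 15.15 ± 15.14, SD, n = 3 each). The position is computed from the same signals, those of these genes included, so the match is not independent of them.

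**Figure D4:**
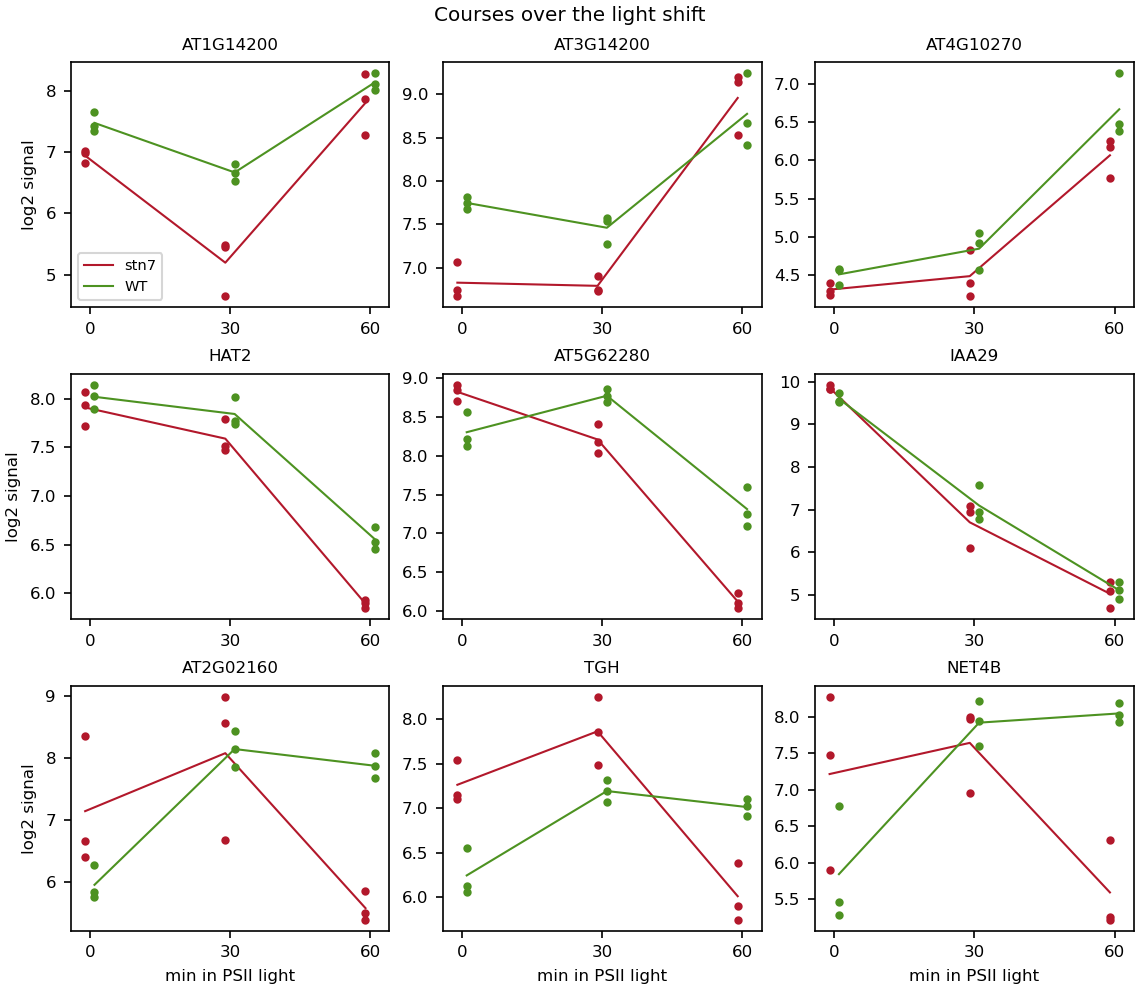
Log2 signal (y axis) at 0, 30 and 60 min in PSII light (x axis) for 9 genes in *stn7* (red) and WT (green); dots are arrays and lines join group means. In the upper and middle rows both genotypes move the same way from 30 to 60 min, and in the lower row the *stn7* signal falls by 1.85 to 2.5 while the WT change lies between -0.27 and 0.13.

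The genes of auxin response and shade avoidance that changed were lower in both genotypes. Of 11 measured members 3 fell in *stn7*, the same 3 fell in WT, and 0 rose in either. Over all 13356 genes with a probe set, 14.9% were called in *stn7* (6.69% higher, 8.18% lower) and 0.898% in WT (0.382% higher, 0.517% lower), and these shares stand beside every list below. The genotype difference was called in 0 members of the lists and in 0.015% of all genes. HAT2, a homeodomain-leucine zipper regulator induced by auxin and by shade, had 5.93, 5.9 and 5.85 in *stn7* at 60 min, against 7.47, 7.51 and 7.79 at 30 min. IAA29, an Aux/IAA repressor of auxin signalling, had 5.31, 4.7 and 5.09 at 60 min, against 6.1, 6.94 and 7.08 at 30 min. The groups did not overlap in either gene, and HAT2 varied by less than 0.1 among the arrays at 60 min.

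HAT2 fell by 1.7 on the log2 scale (SE 0.11), IAA29 by 1.67 (SE 0.22) and AT5G02540 by 1.3 (SE 0.17). In WT their changes were -1.29, -1.99 and -1.31. All 3 were called with either covariate and without any single *stn7* array. IAA29 had already dropped before 30 min, since its *stn7* means were 9.86, 6.71 and 5.03 at 0, 30 and 60 min. HAT2 changed mostly after 30 min, with means of 7.91, 7.59 and 5.89. The other 8 members, 6 of them Aux/IAA genes, changed by -0.2 to 0.09 and were not called.

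Genes of cell wall loosening rose more often than they fell. Of 28 measured members 6 rose and 1 fell, with a median change of 0.09 (0.01 over all genes). Beside XTH33 and EXLA1, the endotransglucosylase genes XTH16 (1.2 ± 0.22), XTH18 (0.94 ± 0.17) and XTH32 (0.65) and the expansin gene EXPA15 (0.44) rose. XTH16 read 10.03, 9.83 and 9.79 in *stn7* at 60 min and 9.09, 8.52 and 8.45 at 30 min, and lost its call with the 3' to 5' difference (adjusted p = 0.0591). EXPA8, an alpha-expansin that loosens walls during cell growth, was the member that fell, with 9.74, 9.84 and 9.37 at 60 min against 10.3, 10.46 and 10.47 at 30 min (-0.76 ± 0.11). It fell in WT too (-0.66 ± 0.11), where 2 members rose and 3 fell. With the axis as a covariate 4 members rose and 1 fell.

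Enzymes that make or modify wall polysaccharides gave 3 rises among 6 measured genes. The pectin methylesterase ATPMEPCRB rose by 1.1 ± 0.2 and the CSLA03 gene, of a family that makes glucomannan, by 0.92 ± 0.14. CSLA03 had 8.97, 8.77 and 8.76 in *stn7* at 60 min and 8.19, 7.9 and 7.64 at 30 min. PME61, another pectin methylesterase, rose by 0.45 ± 0.1 and lost its call with either covariate.

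The next families were searched by name only after the changes had been seen, so their counts describe the families and support nothing. Of 8 cellulose synthase-like genes 5 rose and 0 fell, with CSLC04 at 0.48 ± 0.1 next after CSLA03. Of 24 TBL genes, whose family acetylates wall polysaccharides, 6 rose and 0 fell, led by TBL26 (1.01 ± 0.19) and TBL45 (0.86 ± 0.16). Of 16 SWEET sugar transporters 4 rose and 0 fell. SWEET17, a fructose carrier of the vacuole membrane, had 7.81, 7.69 and 7.43 in *stn7* at 60 min against 6.9, 6.81 and 6.59 at 30 min (0.88 ± 0.13). In the fit with the axis 1 cellulose synthase-like, 2 TBL and 2 SWEET genes rose.

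Cytoskeleton genes went both ways. Of 18 measured members 4 rose and 6 fell. The falls were 5 of the 10 measured NETWORKED genes, namely NET4B, NET1D (-1.47 ± 0.35), NET1A (-0.97 ± 0.25), NET1B (-0.87 ± 0.25) and NET3A (-0.8), and the tubulin gene TUB6 (-0.29). NET1D read 4.61, 4.59 and 5.54 in *stn7* at 60 min and 5.78, 6.73 and 6.65 at 30 min. In the fit with the axis 0 members of the list were lower and 1 was higher. That one was ACT11, an actin gene, with 8.4, 8.32 and 7.98 at 60 min against 7.44, 7.16 and 7.17 at 30 min (0.98 ± 0.15). The beta-tubulin genes TUB1 (with overlapping arrays), TUB5 and TUB9 rose by 0.34 to 0.43, and each lost its call with either covariate. TUB1 also lost it without 4 of the 6 *stn7* arrays in turn, and TUB5 and TUB9 without 5.

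Chromatin genes that changed were all lower, 5 of 13 measured (median -0.2). CHR23 and CHR17 encode ATP-driven chromatin remodellers. CHR23 had 3.99, 3.83 and 4.32 in *stn7* at 60 min, against 4.67, 5.4 and 6.03 at 30 min (-1.32 ± 0.29). CHR17 changed by -1.19 ± 0.29 and the linker histone gene HIS1-3, known to respond to drought and low light, by -0.89 ± 0.16. HDA15, a histone deacetylase, and CHR18 fell by 0.43 and 0.41. In the fit with the axis HIS1-3 alone kept its call (-0.9).

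All 3 measured genes of U2AF, the splicing factor that recognises the 3' end of introns, fell, in a search chosen after their values were seen. U2AF35B had 7.58, 7.5 and 7.92 in *stn7* at 60 min, against 8.5, 9.08 and 9.44 at 30 min (-1.34 ± 0.21). ATU2AF65A changed by -1.13 ± 0.25 and ATU2AF35A by -0.83 ± 0.18. With the axis as a covariate U2AF35B was the one still called. DDL (DAWDLE), which like TGH takes part in microRNA processing and was also chosen after its value was seen, fell by 1.66 on the log2 scale (SE 0.36) and lost its call with either covariate.

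**Figure D5:**
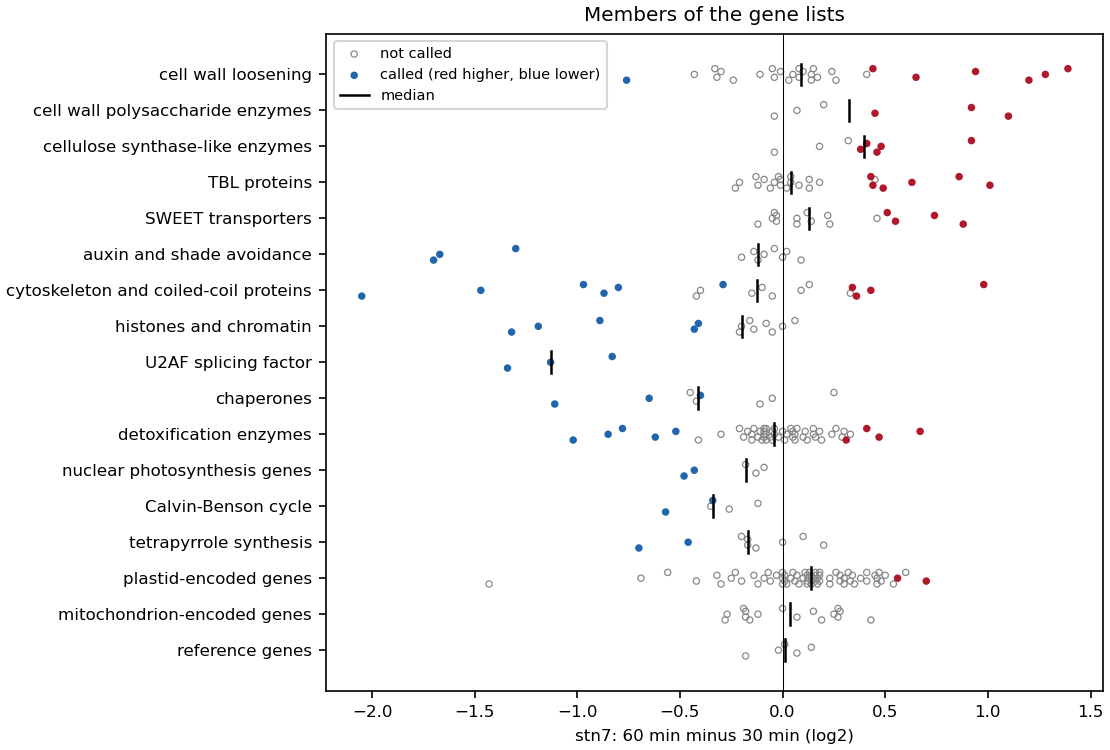
Change in *stn7* from 30 to 60 min (x axis, log2) of each measured member of the larger gene lists (rows); filled points are called, red higher and blue lower, open points are not called, and black bars are list medians. Members of the wall and SWEET lists that were called lie mostly to the right, and those of the auxin, chromatin and U2AF lists to the left; the cellulose synthase-like, TBL, SWEET and U2AF rows were chosen after the changes were seen.

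Among genes of low energy status, AKINBETA1, a regulatory subunit of the SnRK1 energy-sensing kinase, had 8.44, 8.0 and 7.66 in *stn7* at 60 min and 9.31, 9.56 and 9.82 at 30 min. It fell by 1.53 on the log2 scale (SE 0.18, limma adjusted p = 9.64e-05), it fell in WT (-1.08 ± 0.18), and it kept its call with either covariate. AT2G28060 (KINbeta3), another subunit of that kinase, rose by 0.57 ± 0.16 and lost its call with either covariate. The other 2 of 4 measured members were not called.

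MCCA, MCCB, IVD and MGL, genes of amino acid breakdown, were singled out after their values were seen and support nothing. MCCA and MCCB encode the subunits of methylcrotonyl-CoA carboxylase, and IVD encodes isovaleryl-CoA dehydrogenase, which acts just before it in leucine breakdown. MCCA had 7.62, 7.21 and 7.53 in *stn7* at 60 min, against 8.38, 8.71 and 9.09 at 30 min. The changes were -1.27 ± 0.19 for MCCA, -0.9 ± 0.14 for MCCB, -1.0 ± 0.16 for IVD and -0.98 ± 0.16 for MGL, a methionine gamma-lyase. MGL was also called in WT (-0.67 ± 0.16), and all 4 were called with the axis as a covariate. IVD lost its call with the 3' to 5' difference (adjusted p = 0.0504).

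Nuclear genes of photosynthesis that changed were lower, and the sizes were small. In the nuclear photosystem list 2 of 5 fell: LHCB4.2, a minor antenna protein of photosystem II (-0.48 ± 0.1), and PSBY, a small photosystem II protein (-0.43 ± 0.09). PSBY read 11.84, 11.91 and 11.93 in *stn7* at 60 min and 12.33, 12.31 and 12.32 at 30 min. Of 5 Calvin-Benson genes 2 fell, AT5G64380 (-0.57) and AT1G56190 (-0.34), and of 9 genes of tetrapyrrole synthesis, the route to chlorophyll, 2 fell. These were AT1G74470, annotated as geranylgeranyl reductase (-0.7 ± 0.18), and GSA1 (-0.46 ± 0.14). In the fit with the axis as a covariate, AT5G64380 was the one of these 6 still called. With the 3' to 5' difference LHCB4.2 alone kept its call (limma adjusted p = 0.0192). AT5G64380 lost its own (0.0593) with little change in size (-0.6 ± 0.17). The 3 measured genes of thylakoid kinases and their partners were not called (-0.18 to 0.1).

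Organelle transcripts were mostly not called. Of 69 plastid-encoded genes 2 rose, petA of the cytochrome b6f complex (0.7 ± 0.23) and ccsA, needed for cytochrome c assembly (0.56 ± 0.18). Changes over the 69 in *stn7* were -1.43 to 0.7. The lowest was that of atpA (-1.43 ± 0.52), which was not called (limma adjusted p = 0.0689). Its SE was well above the median of 0.122 over all probe sets, so the lack of a call does not show a lack of change. The median over the 69 was 0.14 in *stn7* and 0.38 in WT. Both petA and ccsA lost their call without 5 of the 6 *stn7* arrays in turn and with the 3' to 5' difference. With the axis both kept it (1.01 and 0.73, limma adjusted p = 0.0289 and 0.0474), and the *stn7* median over the 69 was 0.39. Of 16 mitochondrion-encoded genes 0 were called, and their changes were -0.28 to 0.43. 

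Detoxification genes had 4 rises and 5 falls among 55 measured, shares near those over all genes. The falls included the glycosyltransferases UGT73B1 (-1.02 ± 0.25, with overlapping arrays) and UGT74B1 (-0.85 ± 0.24), an enzyme of glucosinolate synthesis. UGT85A5 (-0.78 ± 0.16) was the one of the 9 still called with the axis. The rises included the glutathione transferases GSTU20 (0.67 ± 0.19), GSTU27 (0.47) and GSTU18 (0.31) and the glycosyltransferase UGT72B3 (0.41). Of 8 chaperone genes with a matching name 3 fell, CYP59 (-1.11 ± 0.29, with overlapping arrays), the copper chaperone CCS (-0.65 ± 0.11) and AT4G33060 (-0.4). With the axis CCS was still called, and CYP59 (-0.38) and AT4G33060 (-0.2) were not. Of 11 thiol redox genes the thioredoxin genes ty2 (0.43) and TY1 (0.39) rose and TRXF2 (-0.47) fell. The thioredoxin calls were lost with the axis as a covariate, where TRXF2 stayed at -0.47. With the 3' to 5' difference TRXF2 kept its call (-0.87, limma adjusted p = 0.0114), and ty2 and TY1 lost theirs.

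Smaller lists gave single calls. ZAP1 (WRKY1) was the one call among 8 stress transcription factors (-1.06 ± 0.27), ATG8F among 9 autophagy genes (-0.65 ± 0.13), CML42 among 7 calcium sensors (0.72 ± 0.19) and HYH, a light-signalling regulator, among 2 clock and light genes (0.84 ± 0.22). ATG8F kept its call with either covariate, and ZAP1, CML42 and HYH lost theirs with either. No member was called among 10 ubiquitin ligases (changes of -0.44 to 0.61), 5 reference genes (-0.18 to 0.14), 2 genes of ascorbate metabolism and 2 of flavonoid synthesis. The guard cell marker AT1G22690 had 6.66, 7.13 and 7.02 in *stn7* at 60 min, against 5.79, 5.7 and 5.63 at 30 min (1.23 ± 0.17). FMA, the other measured guard cell marker of 6 in the list, changed by -0.23 and was not called. PYK10, the one measured root marker, had means of 12.41 ± 0.11 at 60 min and 12.15 ± 0.19 at 30 min. SWEET11, the one measured vasculature marker, had means of 11.44 ± 0.19 and 11.32 ± 0.08, and neither was called.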

How the data were processed

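Leaf RNA was measured on 18 one-colour Affymetrix arrays, 6 of them of *stn7* at 60 and 30 min. The deposited values are log2 signals. The submitters' processing notes name GCOS, Affymetrix Expression Console 1.1 and RMA, and RMA settings are not stated in these sources. After 64 control probe sets were removed, 22746 were tested without a filter, and 13513 had 1 gene. Replicates are pools labelled as biological.

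With limma 3.58.1 (R 4.3.3), all arrays entered a single fit of group means (17.8 degrees of freedom, two-sided tests), with Benjamini-Hochberg adjustment in each of 3 comparisons. In simulated data, known changes were added to some of the 22746 probe sets. Of log2 changes of 0.75, 91% were recovered, and of 1.5, 99%, with 18 false calls. The simulated noise was independent between probe sets and held no within-group axis. These shares therefore check the fit and do not measure recovery or false calls in the real arrays. The number of arrays limits the precision. Python 3.11.15, pandas 2.3.3 and matplotlib 3.10.9 were used for tables and plots.

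The members and lists were chosen with earlier results of these data known. The named genes are the 12 largest rises and falls with 1 gene and separate arrays, up to 4 called members per direction of each list (or the 2 with the smallest p), and genotype differences with 1 gene. Members named beyond this, to complete a count, were chosen after their values were seen. Of 41 lists, 37 were set with the design, 2 of which had to be matched by chromosome or symbol because their locus prefixes found no gene. The 4 families (cellulose synthase-like, TBL, SWEET, U2AF) and 5 genes (MCCA, MCCB, IVD, MGL, DDL) were chosen after all changes had been seen. Longer lists put together by hand at that stage, partly from genes seen to change, were discarded and are not reported. A list uses the brightest probe set of each gene. The 6 members matched only by letters inside another word were left out. 10 lists had no measured member. A planned search of promoters for motifs was not run, as no sequences were used here.

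The alternatives were quantile normalization, median centring, filters on mean signal (30th percentile, median), trended robust variance, array weights, a fit of the compared groups alone, a block for replicate number, a minimum of 2-fold, both covariates, and leaving out each array.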

Additional observations from a re-analysis of the deposited data

Results flagged for a closer look

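In 5 probe sets the change from 30 to 60 min differed between *stn7* and WT by the test of the difference itself, each at a limma adjusted p of 0.0483. TGH differed by -1.67, with a change of -1.85 ± 0.19 in *stn7* and -0.18 ± 0.19 in WT. AT1G78170 differed by 1.02: it had 9.79, 10.08 and 9.85 in *stn7* at 60 min against 8.98, 9.09 and 8.95 at 30 min, and 9.04, 9.18 and 8.84 in WT at 60 min against 9.25, 9.06 and 9.1 at 30 min. The other 3 carry no single gene name in the annotation used here. 248794_at differed by -1.61 (-1.22 in *stn7*, 0.39 in WT), 253011_at by 0.92 (0.51 in *stn7*, -0.41 in WT) and 258822_s_at by -1.24 (-1.5 in *stn7*, -0.25 in WT). The arrays of *stn7* did not overlap between the times in any of the 5, which also held for 32.6% of all probe sets. Separation within *stn7* does not bear on the difference from WT. Over the alternatives their adjusted p ran from 0.00597 to 0.252, and none of the 5 passed with the replicate number as a block or with the 3' to 5' difference as a covariate.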

How the results depend on the processing

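The count of 3702 changed probe sets in *stn7* (1675 higher, 2027 lower) stayed within 1.5 times under normalization, centring, filters, variance model, array weights (5341), the smaller fit and the block. It was 406 (52 higher, 354 lower) with a 2-fold minimum, 781 (345, 436) with the 3' to 5' difference and 1110 (432, 678) with the axis, and array weights gave 2571 higher. Leaving out 1 array gave 1551 to 3887 (687 to 1826 higher, 864 to 2061 lower). In WT the 258 calls became 680 with array weights, 56 with the 2-fold minimum, 21 with the 3' to 5' difference and 583 with the axis, and 55 to 265 without 1 array. The 5 genotype differences became 9 with centring, which moved the median difference over all probe sets to 0.121, then 702 with array weights, 410 with only the groups compared, 0 with the 3' to 5' difference, 1 with the axis, and 0 to 161 without 1 array. With the replicate number as a block, 3313 probe sets were called in *stn7*, 197 in WT and 0 for the difference. Same-numbered *stn7* arrays had deviations correlated at 0.1, -0.23 and 0.17, and differently numbered ones at -0.27 to 0.2. Deviations from a mean of 3 arrays are tied to each other. These values therefore cannot show whether same-numbered arrays share a harvest or a run, which the titles do not state. No named gene that was called in *stn7* turned its direction under any alternative. SWEET11, which was not called, changed by 0.12, and by -0.05 with the axis. The cause of these shifts was not tested. The lowest signals on the arrays, 2.53 to 2.67, bound how far a dim probe set can fall.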
